A study of Mus musculus with 2 samples.

Results

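Tox, Tox2, Nr4a2, Nr4a3, Eomes, Tbx21, Prdm1 and Bhlhe40 encode transcription factors known for setting effector and exhausted states in lymphocytes, and all 8 of 8 were found by symbol among the 32285 genes of the feature table. Their transcripts were read by droplet single-cell RNA sequencing in CT26 tumours, which come from a mouse colorectal carcinoma line and were grown under the skin of wild-type BALB/c mice of 5 weeks. There was 1 vehicle library and 1 library from mice given WQ-2101, which inhibits PHGDH (the enzyme that opens the serine synthesis pathway) and was injected into the peritoneum daily at 20 mg/kg once tumours had reached about 100 mm3. Tumours were taken on day 17 after implantation, the whole suspension was loaded without a recorded sort, both libraries are labelled batch 1, and the number of mice in each is not given. With 1 library per treatment there is no replicate, so no p-value is given, and every interval is an exact 95% interval that covers counting error only.

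T cells that meet antigen for a short time and T cells that meet it for weeks, as in a growing tumour, use overlapping sets of these factors. T-bet (Tbx21) and Eomesodermin (Eomes) are T-box factors that drive cytotoxic and interferon genes in CD8 T and NK cells. TOX and its relative TOX2 act downstream of calcium and NFAT signals and are needed for the exhausted CD8 state. NR4A2 and NR4A3 are orphan nuclear receptors whose genes are switched on within minutes to hours of receptor signalling. BLIMP-1 (Prdm1) is a repressor found in terminal effector, regulatory and tissue-resident lymphocytes and in myeloid cells, and BHLHE40 is a repressor that supports cytokine production and mitochondrial function in activated T cells. TCF-1 (Tcf7) marks the self-renewing pole of exhaustion, and PD-1 (Pdcd1) and TIM-3 (Havcr2) are receptors carried by activated and exhausted cells.

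After removal of shallow cells, cells rich in mitochondrial transcripts and doublet calls, 13668 vehicle and 17293 WQ-2101 cells were kept, with median depths of 10742.5 and 8048 unique molecular identifiers (UMIs) per cell. Of the cell barcodes, 73 occurred in both libraries. Cells were clustered with the 8 genes left out. Within T and NK clusters they were gated on single UMIs of lineage genes into CD8 T cells (296 vehicle and 333 WQ-2101), Cd4-positive T cells without Foxp3 (68 and 67, called CD4 T cells below), Foxp3-positive T cells (52 and 37) and NK cells (85 and 106). Median depths were 3382.5 and 2976 UMIs for CD8 T cells and 5577 and 2855.5 for NK cells, so that NK shares of positive cells are compared only after thinning. As a check of the gates, all 10 T-cell markers were detected in CD8 T cells of both libraries. Genes of the macrophage and monocyte marker list were read in the same cells, with all 12 markers detected. Their summed level was 1954 CPM (UMIs of the gene scaled to a fixed total for the group) in vehicle and 1741 CPM in WQ-2101. That is 12.8% and 12.9% of the level in macrophages. In NK cells that share was 5.51% in vehicle and 10.5% in WQ-2101. The list includes Ly6c2, Plac8 and Ccr2, and how much of each sum came from macrophage RNA was not tested.

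The paralogs Nr4a2 and Nr4a3 were ordered differently over cell types, as described further on, and a stretch before the start of each is shown so that they can be compared. The windows run from 250 to 153 bases before the RefSeq start (GRCm38.p6), outside the annotated transcripts, with matches to TGACGT, the core of a cAMP-response element, in capitals. Nr4a2 lies on chromosome 2 (57106830 to 57124003, minus strand, GRCm38) and its window is chr2:57124156-57124253. Nr4a3 lies on chromosome 4 (48045153 to 48086447, plus strand) and its window is chr4:48045055-48045152.
Nr4a2: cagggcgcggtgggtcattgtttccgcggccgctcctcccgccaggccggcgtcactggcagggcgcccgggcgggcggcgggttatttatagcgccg
Nr4a3: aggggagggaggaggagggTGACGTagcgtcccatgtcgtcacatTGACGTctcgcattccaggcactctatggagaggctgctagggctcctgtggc
Both strands of the whole 300-base windows, from 250 bases before to 50 after the start, were searched for 7 motifs in the 6 of 8 members present in the RefSeq table. TGACGT occurred 3 times in the Nr4a3 window and in none of the other members' windows. The shorter TGACG was not searched for or marked, and its letters occur on the reverse strand of the printed Nr4a2 stretch. TGACGT occurs in 7.51% of the 32851 mouse windows of this length. The AP-1 motif TGANTCA (7.81% of windows) occurred once, for Prdm1. GGAAAA, the NFAT core (23.4% of windows), occurred in windows of Tox2 alone. The full element TGACGTCA (1.79%), which contains TGACGT, the BHLHE40 motif CACGTG (7.15%), the NR4A motif AAAGGTCA (1.51%) and the T-box motif AGGTGTGA (1.28%) occurred in none of them. The pair was chosen for display after the search was seen, and a match describes letters, not binding.

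Tox was a transcript of T and NK cells in these tumours and was higher in CD4-gated than in CD8-gated T cells. It stood at 506 CPM (interval 415 to 611, 108 UMIs) in vehicle CD4 T cells and 574 CPM (467 to 699) in WQ-2101 CD4 T cells, and at 566 CPM (467 to 680) and 769 CPM (610 to 958) in Foxp3 T cells. CD8 T cells held 181 CPM (158 to 206, 224 UMIs) and 186 CPM (162 to 212, 215 UMIs). The CD4 level was 2.79 times the CD8 level in vehicle (interval of the ratio 2.2 to 3.53) and 3.09 times in WQ-2101 (2.41 to 3.94), and the Foxp3 level was 3.13 and 4.15 times the CD8 level. The CD4 and Foxp3 groups had overlapping intervals in vehicle, and both stood above CD8 T cells in both libraries. The CD4 gate rests on the absence of a Foxp3 UMI, so regulatory T cells in which none was detected would enter it. The cluster led by Tnfrsf4, Ikzf2 and Il2ra held 114 and 82 cells, against 52 and 37 in the Foxp3 gate. How many such cells the CD4 group holds was not tested. NK cells held less than CD8 T cells, at 85.5 and 89.6 CPM, 0.472 times (0.334 to 0.655) and 0.483 times (0.344 to 0.665) their level.

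Outside T and NK cells Tox was low. In WQ-2101, B cells held 6.8 CPM and the 35 endothelial cells 26 CPM, each on 5 UMIs. Macrophages and monocytes held 0.609 CPM in vehicle and 0.302 CPM in WQ-2101, with a UMI in 0.471% and 0.167% of cells, against 34.5% and 32.7% of CD8 T cells. At a common depth of 2000 UMIs the CD8 shares were 23.2% and 22.5%. CT26 tumour cells held 0.308 and 0.429 CPM. The genes whose levels ran most alike to Tox over 20 points (cell groups in each library) were Cd247, the CD3 zeta chain (Pearson r = 0.98), Cd27 (0.98) and Icos (0.98), co-stimulatory receptors of T cells. These points share libraries, and the correlation describes cell-type pattern only.

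Tox2 could hardly be read. CD8 T cells held 2 UMIs in each library, NK cells none, and all T-cell clusters together 13 in vehicle and 9 in WQ-2101. In CD4 T cells there were 0 UMIs in vehicle and 4 in WQ-2101, which is 23.2 CPM with an interval of 6.32 to 59.4. At these counts no order between groups is read.

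**Figure D1:**
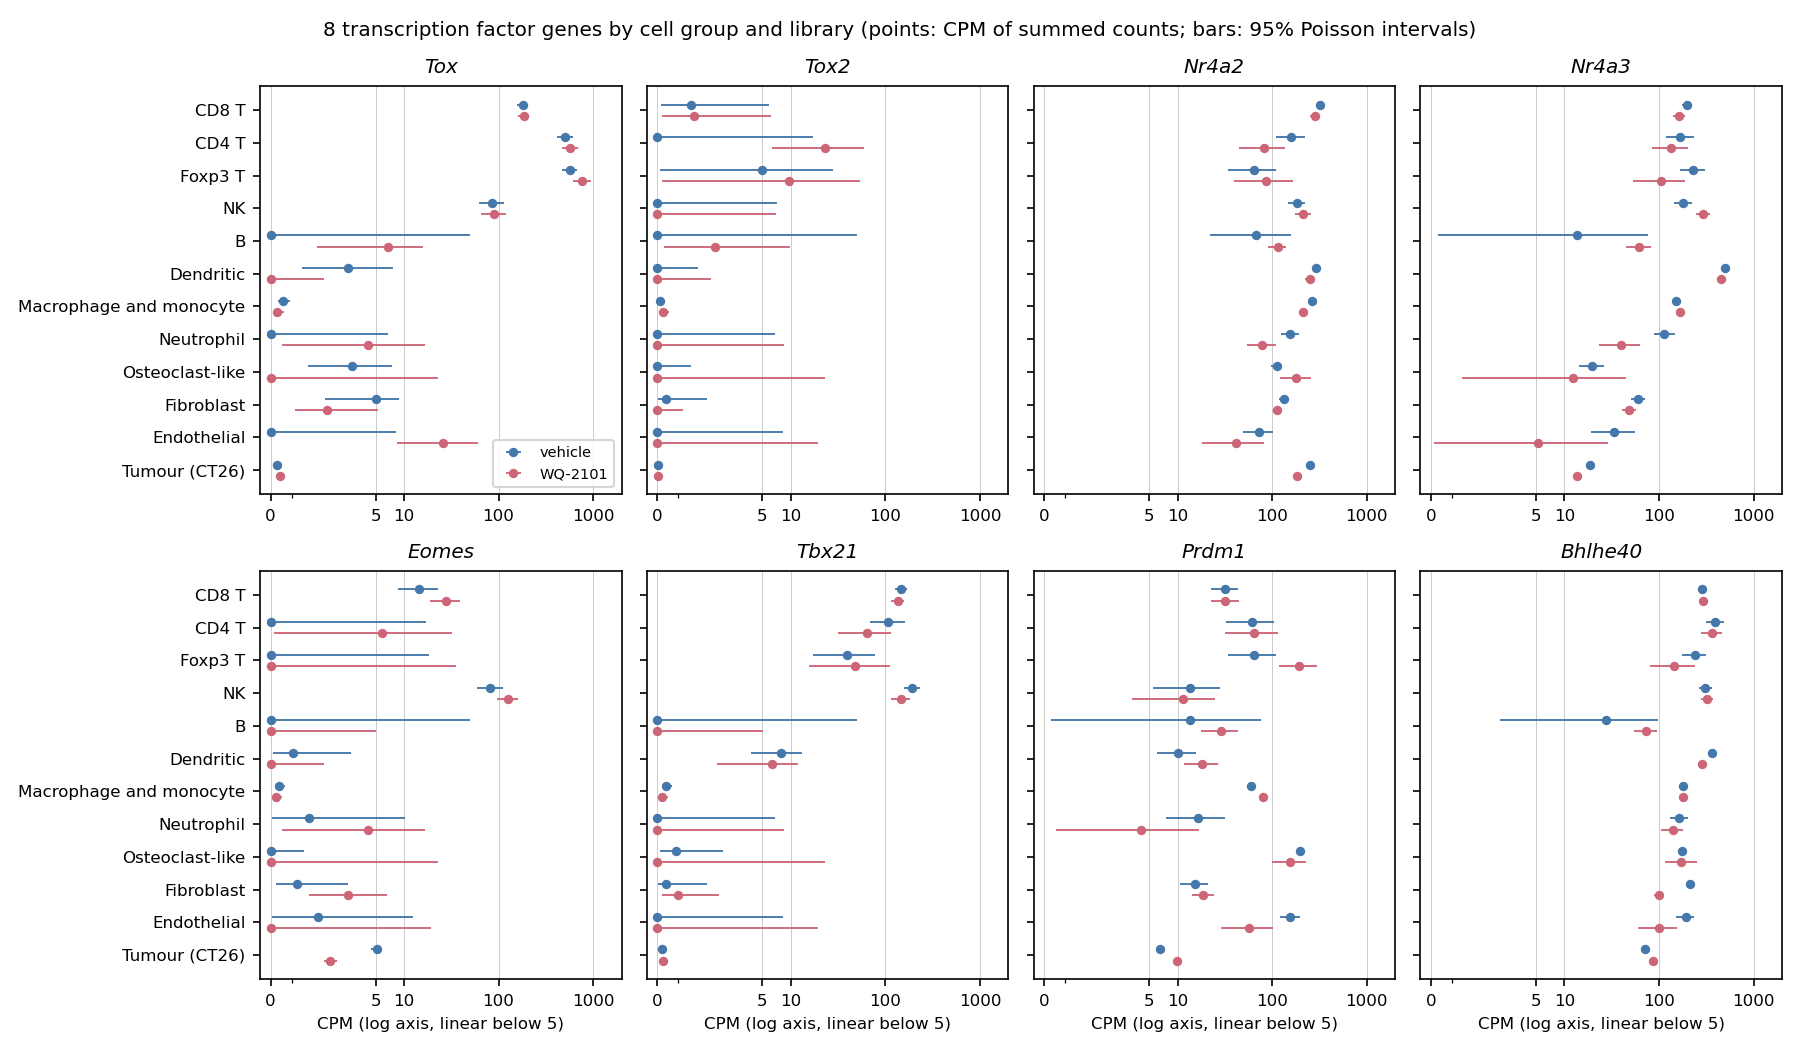
Level of each of the 8 genes in 12 cell groups, with vehicle and WQ-2101 libraries as separate points; the horizontal axis is CPM on a log scale that is linear below 5, and bars are exact 95% Poisson intervals. Tox and Tbx21 stand apart in T and NK cells, Nr4a2 and Bhlhe40 are spread over most groups, and Nr4a3 is highest in dendritic cells.

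Among groups of at least 50 cells, both T-box genes were highest in NK cells and next in CD8 T cells. For Tbx21 the NK and CD8 intervals overlapped. Eomes was highest in NK cells, at 81.6 CPM (58.8 to 110, 42 UMIs) in vehicle and 126 CPM (97.3 to 160, 66 UMIs) in WQ-2101. CD8 T cells held 14.5 CPM (8.62 to 23, 18 UMIs) and 27.6 CPM (18.9 to 39, 32 UMIs), so that NK cells stood 5.61 times (3.16 to 10.4) and 4.56 times (2.94 to 7.18) higher. The NK and CD8 intervals did not overlap in either library. In CD4 T cells there were 0 and 1 UMIs, and in Foxp3 T cells 0 and 0. In groups of this size 3 counts amount to about the CD8 level, and a level below that of CD8 T cells was not detectable.

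Tbx21 was shared more evenly. NK cells held 192 CPM in vehicle and 145 CPM in WQ-2101, CD8 T cells 147 and 136 CPM, and CD4 T cells 108 and 63.8 CPM. Foxp3 T cells held 39.7 and 48.1 CPM, 0.27 and 0.355 times the CD8 level. Dendritic cells held 7.94 and 6.26 CPM, and macrophages 0.406 and 0.215 CPM. Across groups Tbx21 ran most alike to Nkg7 (r = 0.97), a cytotoxic granule protein, and Il2rb (0.97), the shared receptor chain for interleukins of NK and CD8 T cells, while Eomes ran most alike to the granzyme gene Gzmf (0.95).

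Nr4a2 and Nr4a3 were found in nearly every cell type, in different orders. Nr4a2 was at 319 CPM (288 to 352) in vehicle CD8 T cells and 282 CPM (252 to 315) in WQ-2101 CD8 T cells. Dendritic cells held 289 and 250 CPM, macrophages and monocytes 266 and 214 CPM, and tumour cells 251 and 182 CPM. Thus CD8 T and dendritic cells did not differ beyond counting error in either library, and tumour cells carried Nr4a2 in the same range. Within T cells, CD4 T cells held 159 and 81.2 CPM and Foxp3 T cells 64.6 and 86.6 CPM, both below CD8 T cells in both libraries. The CD4 level was 0.499 and 0.288 times the CD8 level, and the Foxp3 level 0.202 and 0.307 times.

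Nr4a3 was instead highest in dendritic cells, at 499 CPM (468 to 532) in vehicle and 451 CPM (417 to 487) in WQ-2101, apart from the next group in both libraries. A UMI was present in 74.9% and 62.2% of dendritic cells, and in 50.8% and 47% at 2000 UMIs. CD8 T cells held 197 and 162 CPM, NK cells 181 and 294 CPM, and macrophages 152 and 165 CPM. Tumour cells held 18.7 and 13.5 CPM. Tumour cells thus lay close to macrophages for Nr4a2 and well below them for Nr4a3. Over the 20 points the correlation between the paralogs was 0.39.

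Prdm1 was highest in osteoclast-like and endothelial cells in vehicle, and in Foxp3 T cells, with intervals that overlap those of the 14 osteoclast-like cells, in WQ-2101. Osteoclast-like cells held 197 CPM in vehicle (154 CPM on 14 WQ-2101 cells), and endothelial cells 155 CPM in vehicle (57.2 CPM on 35 WQ-2101 cells). Macrophages and monocytes held 59.6 and 79.1 CPM, with the highest of their clusters, led by Plac8, Ly6c2 and Hp as in blood-derived monocytes, at 92.8 and 134 CPM. Among lymphocytes, Foxp3 T cells held 64.6 CPM (34.4 to 110, 13 UMIs) and 192 CPM (118 to 297, 20 UMIs), against 31.5 and 31.9 CPM in CD8 T cells. NK cells held less than CD8 T cells, at 13.6 and 11.4 CPM on 7 and 6 UMIs.

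Among groups of at least 50 cells, Bhlhe40 was highest in CD4 T, CD8 T, NK and dendritic cells. CD4 T cells held 393 and 360 CPM, dendritic cells 360 and 285 CPM, NK cells 309 and 322 CPM and CD8 T cells 288 and 294 CPM. Foxp3 T cells held 238 and 144 CPM, macrophages and monocytes 180 and 178 CPM, and tumour cells 72 and 86.7 CPM. B cells, of which vehicle had 20, were the lowest of 9 such groups in WQ-2101, at 72.1 CPM. The tumour cluster led by Il1rl1 and Cxcl1 held the most Bhlhe40 of the 6 tumour clusters, at 121 and 151 CPM, and the most Nr4a2, at 369 and 261 CPM. The genes most alike to Bhlhe40 were Fgl2 (r = 0.85), Tmsb4x (0.84) and Id2 (0.83), and Fgl2 also led the list for Nr4a3 (0.90).

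Read against all genes, the differences between subsets counted as follows, with a gene counted where its level differed by 1.5-fold or more in the same direction in both libraries, after 5 CPM was added to each level. CD4 over CD8 T cells, 2 members were higher (Tox and Prdm1) where 5.76% of the 8224 genes tested were higher, and 4.96% were lower. For Prdm1 the interval of each ratio included 1. Nr4a2 was lower in CD4 T cells. Foxp3 over CD8 T cells, Tox and Prdm1 were higher (9.24% of genes) and Nr4a2 and Tbx21 lower (6.93%), with the Prdm1 ratio at 2.05 (1 to 3.92) in vehicle and 6.02 (3.31 to 10.6) in WQ-2101. NK over CD8 T cells, Eomes was higher (4.44% of genes) and Tox and Prdm1 lower (8.32%), with Prdm1 at 0.431 and 0.358 times the CD8 level. Eomes also fell below the bound in CD4 and Foxp3 T cells, on the counts at the floor given above.

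Within CD8 T cells, Bhlhe40, Nr4a2 and Tbx21 were higher where Pdcd1 was present. Of the CD8 T cells, 103 vehicle and 114 WQ-2101 cells held a Pdcd1 UMI. Bhlhe40 stood at 378 CPM in Pdcd1-positive against 220 CPM in Pdcd1-negative vehicle cells (ratio 1.72, interval 1.38 to 2.13) and at 435 against 206 CPM in WQ-2101 (2.11, 1.7 to 2.64). Nr4a2 stood at 402 against 257 CPM (1.57, 1.28 to 1.92) and 417 against 197 CPM (2.11, 1.69 to 2.65), and Tbx21 at 187 against 117 CPM (1.6, 1.18 to 2.16) and 187 against 103 CPM (1.82, 1.31 to 2.53). These 3 of 7 members tested passed 1.5-fold in both libraries, where 3.75% of the 7964 genes tested were higher and 3.4% lower. The remaining members did not: Tox stood at 217 against 154 CPM in vehicle and 201 against 176 CPM in WQ-2101, Nr4a3 at 236 against 168 CPM and 196 against 141 CPM, Eomes at 11.3 against 16.9 CPM and 13.4 against 36.6 CPM, and Prdm1 at 22.7 against 38.1 CPM and 31.2 against 32.4 CPM.

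Pdcd1-positive cells were deeper, with a median of 4359 against 3006 UMIs in vehicle and 3391.5 against 2677 UMIs in WQ-2101, and depth raises the chance that a cell shows a UMI of any gene. When cells were thinned to 2000 UMIs before they were split, Bhlhe40 kept its difference in both libraries, at 477 against 236 CPM and 586 against 216 CPM. Nr4a2 stood at 406 against 289 CPM in vehicle, under 1.5-fold, and 457 against 229 CPM in WQ-2101. Tbx21 stood at 219 against 116 CPM and 171 against 132 CPM. Tox had no excess in Pdcd1-positive cells at that depth, at 133 against 166 CPM and 171 against 189 CPM. Macrophage markers summed to 1674 CPM in Pdcd1-positive and 2163 CPM in Pdcd1-negative vehicle cells, and to 1114 and 2137 CPM in WQ-2101 cells, so they were lower where the 3 members were higher.

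Cells with UMIs of both Pdcd1 and Havcr2, 28 in vehicle and 45 in WQ-2101, were set against the 170 and 196 cells with neither. Bhlhe40 was higher by 1.5-fold in both libraries, at 313 against 202 CPM and 430 against 198 CPM, where 5.68% of the 6833 genes tested were higher and 5.71% lower. Nr4a2 stood at 365 against 249 CPM (ratio 1.46) in vehicle and 446 against 196 CPM (2.27) in WQ-2101. Tox stood at 236 against 143 CPM (1.66, 1.13 to 2.4) and 218 against 165 CPM (1.32, 0.901 to 1.91). Thinned to 2000 UMIs, Tox stood at 357 against 161 CPM on 5 and 58 UMIs in vehicle and at 23.8 against 168 CPM on 1 and 59 UMIs in WQ-2101, so no order is read for it. Bhlhe40 stood at 357 against 236 CPM and 619 against 205 CPM after thinning.

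Bhlhe40 was lower in CD8 T cells that held a Tcf7 UMI. In the 27 vehicle cells with a Tcf7 UMI Bhlhe40 stood at 129 CPM, against 302 CPM in the 269 cells without (ratio 0.428, 0.226 to 0.742). In the 51 WQ-2101 cells it stood at 120 CPM, against 326 CPM in 282 cells (0.367, 0.224 to 0.571). Nr4a2 stood at 219 against 328 CPM (0.666, 0.413 to 1.02) in vehicle, within 1.5-fold once 5 CPM was added. In WQ-2101 it stood at 154 against 305 CPM (0.503, 0.326 to 0.747). Tox went the other way, at 288 against 172 CPM (1.68, 1.1 to 2.49) in vehicle and 359 against 155 CPM (2.32, 1.7 to 3.13) in WQ-2101. Of the 7879 genes tested, 4.7% were higher and 8.59% lower in Tcf7-positive cells of both libraries. After thinning, the Tox difference was not seen in vehicle, at 156 CPM on 5 UMIs against 158 CPM, and present in WQ-2101, at 300 against 173 CPM. Bhlhe40 remained lower in both, on 2 UMIs among Tcf7-positive vehicle cells and 7 among WQ-2101 cells. Nr4a2 was then also lower by 1.5-fold or more in both libraries. Macrophage markers summed to 1968 CPM in Tcf7-positive and 1953 CPM in Tcf7-negative vehicle cells, and to 1605 and 1765 CPM in WQ-2101 cells.

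Eomes in the WQ-2101 CD8 T cells stood at 74 CPM (13 UMIs) in Tcf7-positive and 19.3 CPM (19 UMIs) in Tcf7-negative cells. In vehicle the same cells held 1 and 17 UMIs. Thinned WQ-2101 cells held 0 and 18 UMIs, the opposite order, so no order is read. Splitting CD8 T cells by a UMI of the granzymes Gzmc to Gzmf gave 1 member in both libraries, Eomes, lower in the granzyme-positive cells at 6.12 against 17.6 CPM and 10.5 against 33.3 CPM on 2 and 3 UMIs with intervals that include 1, where 2.49% of the 7964 genes tested were higher and 5.99% lower.

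**Figure D2:**
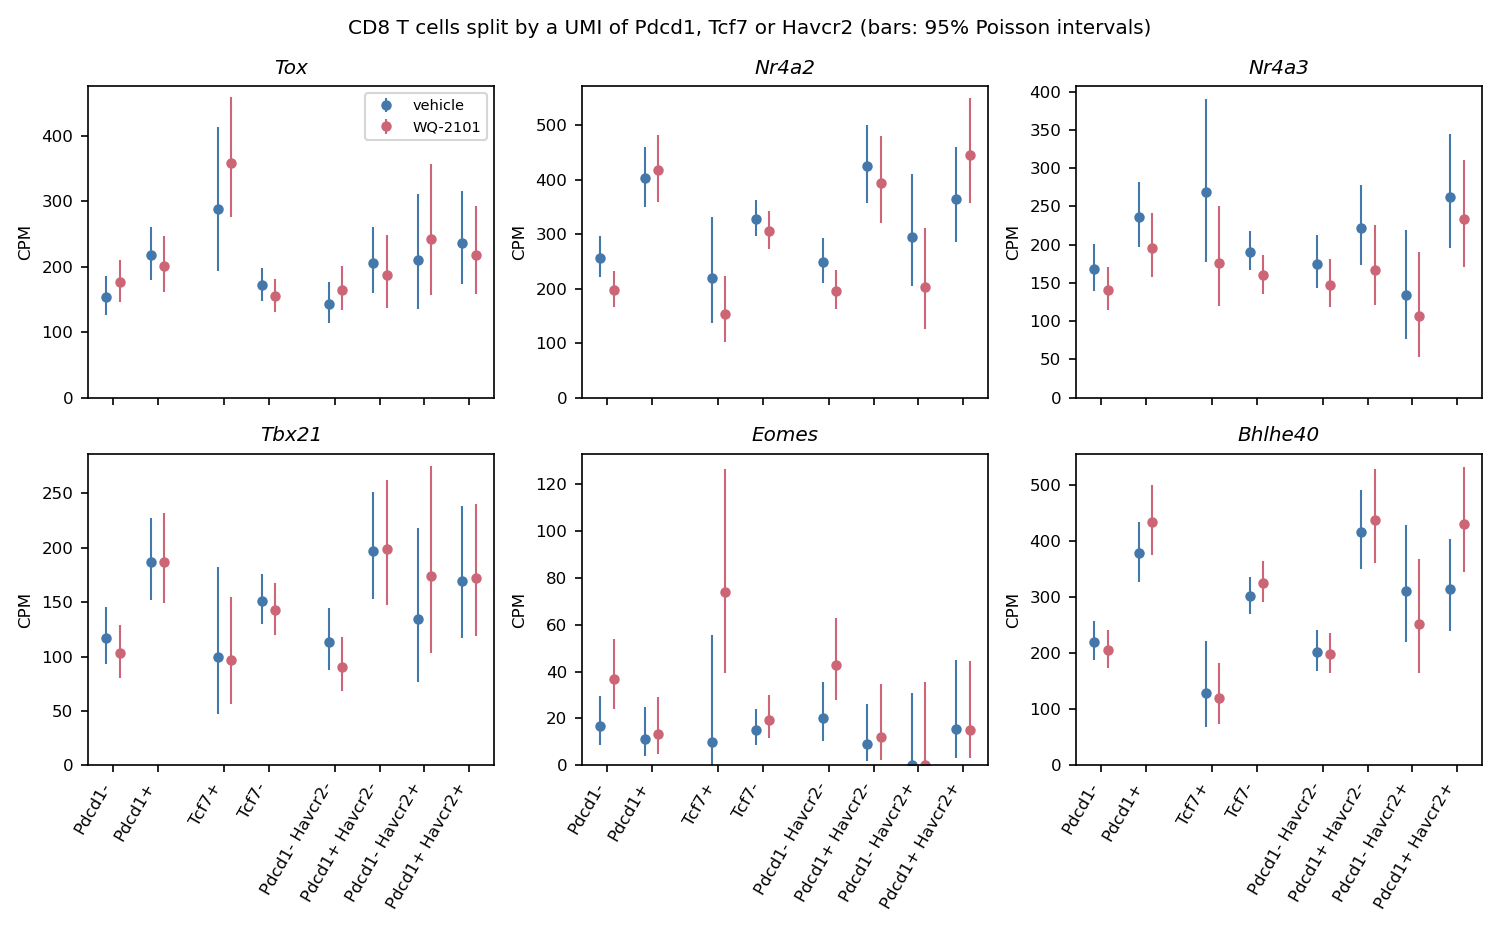
Levels of 6 of the genes in CD8 T cells split by a UMI of Pdcd1, of Tcf7, or of Pdcd1 and Havcr2; the vertical axis is CPM at full depth and bars are exact 95% Poisson intervals. Bhlhe40 is higher in Pdcd1-positive than in Pdcd1-negative cells and lower in Tcf7-positive than in Tcf7-negative cells in both libraries, and Tox is higher in Tcf7-positive cells at this depth.

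Pairs of genes in single cells were counted at 2000 UMIs, in 263 vehicle and 271 WQ-2101 CD8 T cells, beside the number that the product of the single shares gives. Bhlhe40 and Pdcd1 were found together in 39 vehicle cells, where the product gives 25.6, and in 42 WQ-2101 cells, where it gives 26.1. Bhlhe40 and Tcf7 shared 2 cells where the product gives 6.39, and 3 where it gives 9.32. These were the same in direction and similar in size in both libraries.

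Tox was found with Pdcd1 and Bhlhe40 about as often as the single shares give. Tox and Pdcd1 shared 16 cells against a product of 14.8 in vehicle and 13 against 15.8 in WQ-2101, and Tox and Bhlhe40 shared 24 against 24.3 and 19 against 22.7. Tox and Nr4a2 shared somewhat more, at 1.21 and 1.22 times the product. Nr4a2 and Nr4a3 shared 31 cells (1.10 times the product) in vehicle and 33 (1.45 times) in WQ-2101. In macrophages and monocytes, Nr4a2 and Nr4a3 shared 393 cells against 299 in vehicle and 321 against 230 in WQ-2101.

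Other pairs went in opposite directions in the libraries. Nr4a2 and Tbx21 shared 16 CD8 T cells where the product gives 21.7 in vehicle, and 33 where it gives 20 in WQ-2101. In NK cells, Eomes and Tbx21 shared 1 of 73 cells (product 4.11) in vehicle and 7 of 69 cells (product 3.86) in WQ-2101. Most CD8 T cells showed few of the genes at this depth: none in 18.3% and 19.2% of cells, and 1 in 33.5% and 38%.

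**Figure D3:**
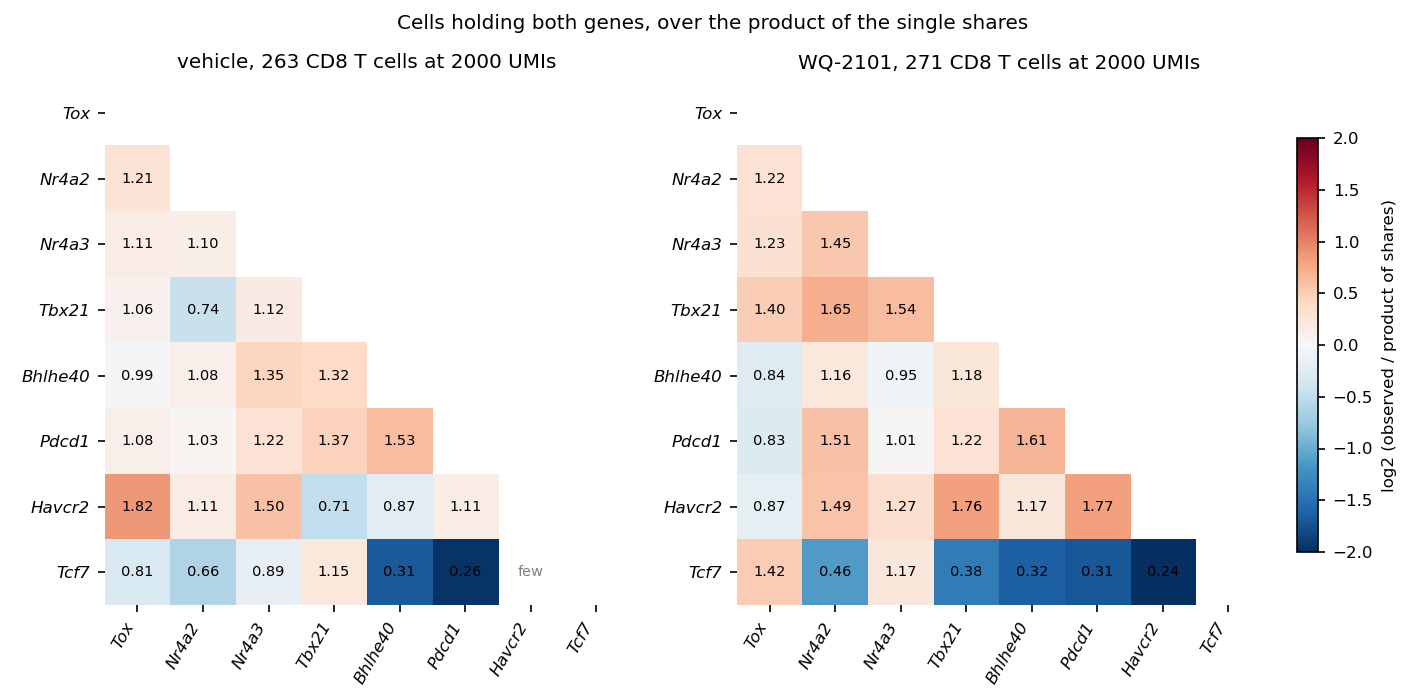
Co-detection in CD8 T cells thinned to 2000 UMIs, as the number of cells holding both genes over the product of the single shares; numbers are that ratio, colours its log2, and the panels are the vehicle and WQ-2101 libraries. The Bhlhe40 and Tcf7 square is at 0.31 in vehicle and 0.32 in WQ-2101, and the Bhlhe40 and Pdcd1 square at 1.53 and 1.61.

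WQ-2101 was set against vehicle in each gate. In CD8 T cells, Eomes was the 1 member of 7 tested past 1.5-fold, at 27.6 against 14.5 CPM (ratio 1.9, 1.03 to 3.59). Among all 9531 genes tested there, 4.41% were higher and 6.19% lower by that bound. The CD8 ratio was 1.03 (0.846 to 1.24) for Tox, and on the log2 scale with 5 CPM added Nr4a2 stood at -0.17, Nr4a3 at -0.27, Tbx21 at -0.11, Prdm1 at 0.02 and Bhlhe40 at 0.03. The Tox interval leaves out a 1.5-fold change either way, but with gates on all kept cells and no clustering its log2 ratio was -0.70. The Eomes difference changed direction without naive-like cells, at a log2 ratio of -0.29, and was -0.0166 when doublet calls were kept. Naive and stem-like genes moved beside it: 5 of 10 tested were higher in WQ-2101 CD8 T cells, including Tcf7 (30.7 and 63 CPM), and none was lower. Of 17 effector genes tested there, 6 were higher and none lower, among them the granzyme Gzmd (46.1 and 258 CPM) and Ifng (189 and 460 CPM). Their part in the Eomes difference was not tested otherwise.

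NK cells had 2 members of 7 past the bound, both higher in WQ-2101: Nr4a3 at 294 against 181 CPM (ratio 1.63, 1.25 to 2.13) and Eomes at 126 against 81.6 CPM (1.54, 1.03 to 2.33). Among all genes tested in NK cells 12.2% were higher and 10.5% lower. With doublet calls kept the log2 ratios were -0.15 for Nr4a3 and -0.13 for Eomes, and with no clustering -0.27 and -0.33. At a minimum of 1000 UMIs per cell neither passed the bound. Their macrophage marker level rose beside these values, from 841 to 1419 CPM. Without the cells that carry 3 or more UMIs of 5 macrophage genes, Nr4a3 stood at 183 CPM in 74 vehicle cells and 335 CPM in 91 WQ-2101 cells. The macrophage markers still summed to 779 and 1177 CPM in those cells, so most of this sum and its difference between libraries remained. The part of macrophage RNA in the Nr4a3 difference was not tested. Of 16 immediate early genes tested in NK cells, 4 were higher (Nr4a1, Zfp36, Cd69 and Dusp2) and none lower, and of 15 effector genes 7 were higher, led by the granzyme Gzmf at 2506 and 9520 CPM.

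The small CD4 and Foxp3 groups gave larger ratios on fewer counts. In CD4 T cells Nr4a2 was lower in WQ-2101, at 81.2 against 159 CPM (14 and 34 UMIs, ratio 0.51, 0.253 to 0.976), as was Tbx21, at 63.8 against 108 CPM (0.592, 0.261 to 1.26). Of all genes tested in these cells 16.5% were higher and 17% lower, so that 2 of 6 members lower stands beside a high background. Of 15 immediate early genes 6 were lower in CD4 T cells, among them Atf3, Fosb, Dusp1 and Fos, and none higher. Both members were within 1.5-fold when 2 UMIs of the gate genes were asked for.

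In Foxp3 T cells Prdm1 was higher in WQ-2101, at 192 against 64.6 CPM (20 and 13 UMIs, ratio 2.98, 1.41 to 6.52). Nr4a3 was lower, at 106 against 228 CPM (11 and 46 UMIs, 0.463, 0.216 to 0.908), as was Bhlhe40, at 144 against 238 CPM (0.605, 0.315 to 1.1). Here 22.4% of genes were higher and 18.7% lower, the widest background of the 4 gates. Nr4a3 stayed past 1.5-fold lower under all 12 alternatives tried. Prdm1 was at -0.0248 on the log2 scale when cells were thinned first, and Bhlhe40 at 0.13 under the stricter gate.

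**Figure D4:**
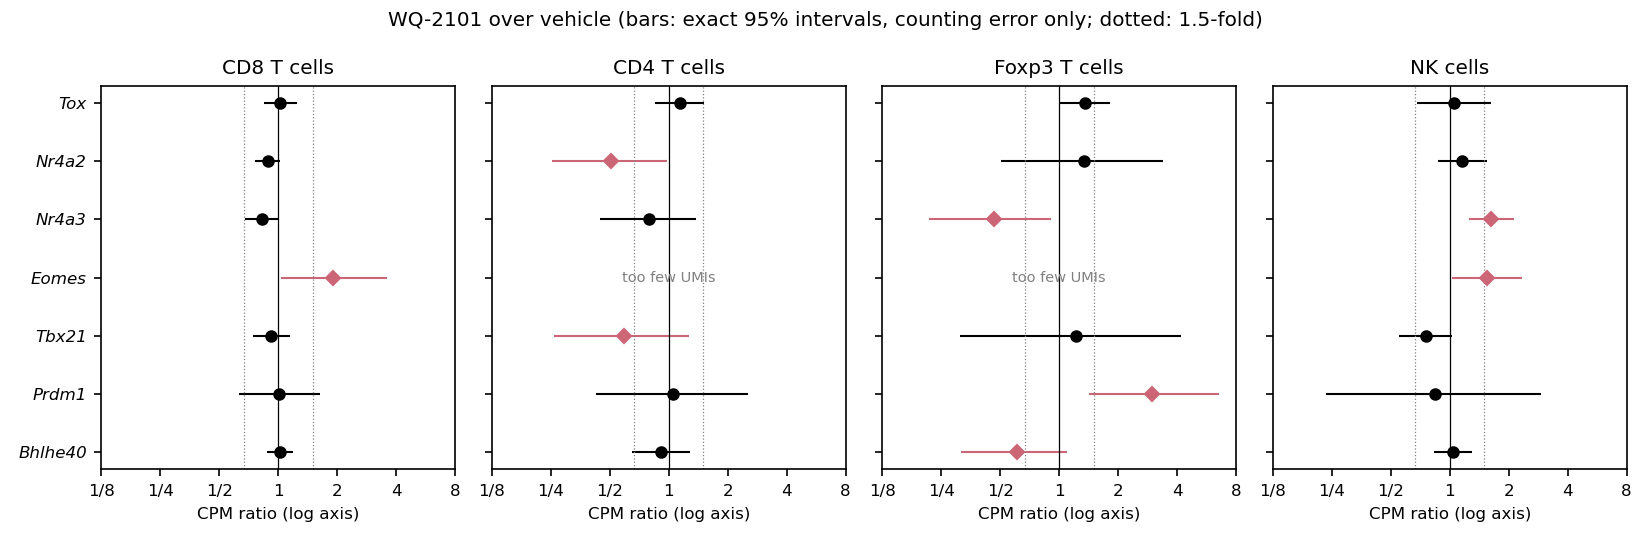
Ratio of WQ-2101 to vehicle CPM for 7 of the genes in 4 gates, on a log axis; bars are exact 95% intervals for counting error, dotted lines mark 1.5-fold either way, and diamonds mark genes past it. Eomes lies to the right in CD8 T and NK cells, Nr4a3 to the right in NK and to the left in Foxp3 T cells, and Prdm1 to the right in Foxp3 T cells.

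The T-cell clusters gave the same comparison with other cells grouped together. The cluster led by Tnfrsf4, Ikzf2 and Il2ra, genes of regulatory T cells, held Tox at 494 CPM in 114 vehicle cells and 836 CPM in 82 WQ-2101 cells (ratio 1.69, 1.38 to 2.07), and Prdm1 at 53.5 and 185 CPM (3.46, 2.02 to 6.02). Nr4a3 was at 200 and 112 CPM in it (0.558, 0.337 to 0.89). In the largest T-cell cluster, led by Ccl5 and Trbc2 with 413 and 523 cells, Tox was at 189 and 296 CPM and Bhlhe40 at 254 and 162 CPM (0.639). In the cluster led by Ccl1, Cd8a, Ifng and Pdcd1, with 124 and 151 cells, the directions were turned: Tox was at 332 and 235 CPM (0.708, 0.559 to 0.894) and Bhlhe40 at 460 and 597 CPM (1.3). Over all T-cell clusters together 5.81% of genes passed 1.5-fold either way, and Eomes was the 1 member that did, at a log2 ratio of 0.70.

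In tumour cells, and in macrophages and monocytes, 4 of the 8 members had a mean of at least 5 CPM and were tested (Nr4a2, Nr4a3, Prdm1 and Bhlhe40). Eomes in tumour cells (637 and 343 UMIs) lay under that mean, was not tested, and is described under other observations. None of the 4 tested members passed 1.5-fold with 5 CPM added. Of all genes tested, 1.28% did either way in tumour cells and 1.7% in macrophages and monocytes. Below that bound, some members shifted alike over clusters and others did not. The clusters come from the same vehicle and WQ-2101 libraries, so they are not replicates. The share of all genes that shifted alike over clusters was not computed. Nr4a2 fell in tumour cells from 251 to 182 CPM (ratio 0.727, 0.714 to 0.739), and it was below 1 in 6 of 6 tumour clusters, from 0.637 to 0.812, with every interval below 1. Nr4a3 was lower in all 6 clusters too, from 0.5 to 0.782, with 5 intervals below 1. Bhlhe40 went the other way, at 1.21 times vehicle (1.17 to 1.24) in tumour cells. It was above 1 in all 6 clusters, from 1.09 to 1.26, with 4 intervals above 1. In macrophages and monocytes Nr4a2 stood at 0.807 times vehicle (0.779 to 0.835), below 1 in 3 of 4 clusters, and Prdm1 at 1.33 times (1.24 to 1.41), above 1 in all 4 clusters, from 1.24 to 1.6. Nr4a3 went both ways in those clusters, from 0.824 to 1.37, with 2 intervals above 1. Prdm1 in tumour cells stood at 9.86 against 6.56 CPM, 1.5 times vehicle (1.37 to 1.65) before 5 CPM was added. Over tumour clusters it ran from 0.717 to 1.75, with 1 cluster below 1 and 1 interval above 1.

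Dendritic cells had 1 member past the bound, Prdm1, at 18.1 against 10.1 CPM on 26 and 19 UMIs, where 14.7% of genes passed either way. Fibroblasts had Bhlhe40 lower, at 100 against 211 CPM (ratio 0.476, 0.411 to 0.55), where 32.1% of genes passed. In neutrophils Nr4a2, Nr4a3 and Prdm1 were lower, with log2 ratios of -0.93, -1.42 and -1.16 (Prdm1 on 9 and 2 UMIs, ratio 0.28, 0.0294 to 1.35), beside 42.1% of genes past the bound.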

How the data were processed

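Raw UMI counts per gene and cell barcode were deposited for each of the 2 libraries, made by the authors with Cell Ranger. Its version is 7.2.0 per the file headers and 2.2.2 per the submitters' processing notes, which also name GRCm38. These counts were used as deposited; free RNA was not removed. Cells with at least 500 UMIs and 300 genes and at most 15% mitochondrial counts were kept, and Scrublet calls (3.83% of vehicle and 4.17% of WQ-2101 cells) were removed with scanpy 1.11.5. Total depths were 184754398 and 185587327 UMIs. Cells were clustered by Leiden at resolution 1 on 2000 variable genes, 30 components and 15 neighbours, without the 8 genes.

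Clusters were named from marker lists by a rule written after the clusters were seen. It was revised once, so that a lymphocyte score of at least 0.5 takes precedence, after the alternative with doublet calls kept had named the main T-cell cluster for mast cells; the main results did not change. The 3 clusters without a name (331 vehicle and 2946 WQ-2101 cells) entered no group. Gates ask for 1 UMI.

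Counts were summed per group and library and given as CPM, with exact Poisson intervals; ratios have exact conditional intervals and shares Clopper-Pearson ones. A gene was tested at a mean of at least 5 CPM and 10 UMIs in all, and called at 1.5-fold on the log2 scale after adding 5 CPM. Thinning drew 2000 UMIs per cell and left shallower cells out. The calls were tried on simulated CD8 T-cell counts with planted changes and counting noise only. Differences between libraries other than counting error were not part of the simulation, so it does not cover them. The 8 genes, the named-gene rule (the members, the most extreme 4 genes of each list and the 3 genes most alike to each member) and the lists were chosen with earlier results of these data known. Alternatives changed the pseudocount, depth minimum, doublet removal, gates, depth, weighting, scaling, macrophage-, cycling- or naive-like cells, and clustering.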

Additional observations from a re-analysis of the deposited data

Results flagged for a closer look

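Nr4a3 moved in opposite directions in NK and Foxp3 T cells: its log2 ratio of WQ-2101 over vehicle was 0.69 in NK cells (93 and 154 UMIs) and -1.08 in Foxp3 T cells (46 and 11 UMIs). The difference between the groups was not tested, since each treatment has 1 library. With doublet calls kept the NK value was -0.15, with no clustering it was -0.27, and at a minimum of 1000 UMIs per cell it was within 1.5-fold; the Foxp3 value stayed below 0 under all 12 alternatives.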

How the results depend on the processing

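Of 312 log2 ratios recomputed under an alternative, 272 stayed within the counting interval of the main ratio and 32 moved beyond it. Another 8, all of members past 1.5-fold in the main settings, changed direction. Sign changes of members within 1.5-fold were not counted apart. They occurred too, as for Tox in CD8 T cells (0.035 in the main settings, lowest value -0.70). The number of members past 1.5-fold was 1 in CD8 T cells; it was 2 with doublet calls kept (Nr4a3 and Tbx21, both lower), 0 under the stricter gate, 0 with cells weighted alike, 0 without naive-like cells and 3 with gates on all kept cells and no clustering. In CD4 T cells it was 2, 0 under the stricter gate and 4 without clustering. In NK cells it was 2; it was 1 with a pseudocount of 10 CPM, 0 at a minimum of 1000 UMIs, 1 with doublet calls kept (Tbx21, lower), 1 with CPM over genes other than mitochondrial and ribosomal ones, 1 without naive-like cells and 0 without clustering. In Foxp3 T cells it was 3 and stayed within 1.5 times. Among members past 1.5-fold in the main settings, the direction changed for Eomes in CD8 T cells (-0.0166 with doublet calls kept, -0.29 without naive-like cells). It also changed for Nr4a3 in NK cells (-0.15 with doublet calls kept, -0.27 without clustering) and for Eomes in NK cells (-0.13 and -0.33 under the same settings). In Foxp3 T cells it changed for Bhlhe40 (0.13 under the stricter gate) and Prdm1 (-0.0248 after thinning). The number of members higher in Pdcd1-positive CD8 T cells was 3, and 1 (Bhlhe40) after thinning. The cause of these changes was not tested. The naming rule was revised after the values with doublet calls kept had been seen. For 6 of the 8 members a T-cell or NK gate held the highest level in both libraries (groups of at least 50 cells). The share of all genes highest in such a gate was not computed, so this count is not read as a result about the members. The 6 members include Tox2, whose highest groups rest on 1 and 4 UMIs, so that no order is read for it. They also include Nr4a2, highest in CD8 T cells, and Bhlhe40, highest in CD4 T cells. For both, the intervals overlapped those of dendritic cells in both libraries. The number of members with a T-cell or NK gate highest was 6 at Leiden resolution 2, 6 at 1000 UMIs and 4 with doublet calls kept. No paired analysis was possible because each treatment has 1 library. Depth limits Tox2 throughout and Eomes in CD4 and Foxp3 T cells.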

Other observations

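Eomes, a lymphocyte factor, was also read in CT26 tumour cells. It stood at 5.16 CPM (637 UMIs, 8.2% of cells) in vehicle and 2.83 CPM (343 UMIs, 3.73% of cells) in WQ-2101. At 2000 UMIs per cell the shares were 0.8% and 0.531%. Macrophages and monocytes held 0.406 CPM (14 UMIs) and 0.258 CPM (6 UMIs), with thinned shares of 0.0697% and 0.0883%. The WQ-2101 level in tumour cells was 0.548 times the vehicle level (0.479 to 0.626). It was lower in 6 of 6 tumour clusters, from 0.442 to 0.624, with 5 intervals below 1. Those clusters share the same libraries and are not replicates. Tbx21 was at 0.243 and 0.256 CPM in tumour cells. The part of free RNA in these levels was not tested.

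A cluster of 147 vehicle and 129 WQ-2101 cells, led by T-cell genes such as Themis and Skap1 but left unnamed because lymphocyte markers were present although macrophage markers scored highest, held Tox at 78.1 and 92.4 CPM and Nr4a2 at 323 and 230 CPM. It entered none of the comparisons.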
